A study of Mus musculus with 16 samples.

Results

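The genes described here were the 4 receptors of the opioid family and 3 of the genes that encode precursors of their peptides, as named in the gene tables: Oprm1, Oprd1, Oprk1, Oprl1, Penk, Pdyn and Pnoc. They are 7 of the 22609 gene symbols counted and were found by symbol. The study sorted sensory neurons from 4 kinds of ganglia of C57BL/6J reporter mice, labelled male, aged 8 to 12 weeks and untreated. It sequenced 4 libraries of each kind, 16 in all. The ganglia were the trigeminal ganglion (TG), which serves the head, the nodose and jugular ganglia, collected as one sample (NG/JG), which serve the viscera through the vagus nerve, and dorsal root ganglia of the lumbar levels L3 to L5 (L3-L5 DRG) and of the levels T10 to L1 (T10-L1 DRG). All 4 groups carried Pirt-Cre and a Cre-dependent TdTomato allele, so that the sort took cells in which the promoter of Pirt, a membrane protein of most sensory neurons, had driven Cre, and each suspension passed through the sorter in 2 cycles. Libraries were made with the SMART-seq2 protocol, which copies full-length polyadenylated RNA of few cells.

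Opioid receptors are receptors coupled to inhibitory G proteins. On sensory neurons they lower cyclic AMP production, close voltage-gated calcium channels at the nerve terminal and can open inwardly rectifying potassium channels, which reduces transmitter release, and this is the peripheral side of opioid analgesia. Oprm1 encodes the mu receptor, the main target of morphine, Oprd1 the delta receptor, Oprk1 the kappa receptor and Oprl1 the nociceptin receptor. Their peptides are cut out of larger precursors: enkephalins from Penk, dynorphins and neo-endorphins from Pdyn, and nociceptin from Pnoc. Pomc, the precursor of beta-endorphin, was not in this set and is described below with the genes around the receptors.

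The following stretches of Penk, Pdyn and Pnoc are printed because they encode cores of the peptides that act on the receptors. They were read from the mouse genome build NCBIM37 (mm9), on the minus strand, 5′ to 3′. In each one the capitals mark the 15 bases that encode an enkephalin core or, in Pnoc, the first 5 residues of nociceptin, and the 6 bases on each side are in lower case.
Penk copy 1, Met-enkephalin, chr4:4061475-4061501: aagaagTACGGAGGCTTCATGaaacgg
Penk copy 6, Leu-enkephalin, chr4:4061082-4061108: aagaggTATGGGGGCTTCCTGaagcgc
Penk copy 7, Met-enkephalin, chr4:4060989-4061015: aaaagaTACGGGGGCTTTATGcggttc
Pdyn copy 2, Leu-enkephalin, chr2:129513860-129513886: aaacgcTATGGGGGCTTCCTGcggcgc
Pnoc copy 1, nociceptin, chr14:66023709-66023735: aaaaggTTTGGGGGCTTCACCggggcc

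Penk held 7 such copies, 6 of Met-enkephalin and 1 of Leu-enkephalin, all in exon 2 of 2 of its 268-residue coding transcript. The Met-enkephalin copies used 5 different 15-base sequences. Pdyn, with 248 residues, held 3 copies of Leu-enkephalin in exon 4 of 4, of which the printed copy 2 opens dynorphin A. Pnoc, with 187 residues, held 1 copy of the nociceptin core, in exon 3 of 4. Each copy followed a pair of basic codons, the site at which prohormone convertases cut. Such a pair also came directly after each copy except Penk copies 4 and 7 and the Pnoc copy. Enkephalins begin with tyrosine, which opioid receptors need, whereas nociceptin begins with phenylalanine.

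In the GENCODE annotation of the same build, Oprm1 spans chr10:3308332-3588035 on the minus strand, Oprd1 chr4:131666641-131700401 on the minus strand, Oprk1 chr1:5578574-5596212 on the plus strand and Oprl1 chr2:181449721-181455690 on the plus strand. Penk spans chr4:4060678-4065966, Pdyn chr2:129512301-129525580 and Pnoc chr14:66019510-66044046, all on the minus strand. All are protein-coding. Oprm1 shares 96 exonic bases, 1.18% of its exons, with Ipcef1 on the other strand, which had 0 to 86 reads, and Penk shares 233, 14.3% of its exons, with a long non-coding RNA on the other strand that was not counted. SMART-seq2 does not mark the strand, so reads in those bases cannot be assigned to one gene.

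Reads assigned to genes numbered 4735624 to 13333318 per library. Levels are given as CPM, the reads of a gene per 1000000 of these reads, and as RPKM, in which CPM is divided by the exon length in kilobases, where genes are compared with each other. A count of 0 allows up to 3 counts, which was 0.225 to 0.633 CPM depending on the library, and this floor and the intervals below cover counting error only. Sums of 8 sensory neuron markers were above that of every other library in L3-L5 DRG libraries 2 and 3, at 9113 and 10581 CPM, against 858 to 4827 CPM in the other 14. Markers of satellite glia, at 13087 to 64131 CPM, and of Schwann cells, at 7926 to 53314 CPM, were measured in all 16 libraries. In each library the satellite glia sum, of 6 genes, was above the neuron sum. Apoe alone was at 10418 to 58602 CPM in the glia sum. In L3-L5 DRG libraries 2 and 3 the glia sums were 19513 and 13087 CPM. Less at least 10418 CPM of Apoe, both fell below the neuron sums of 9113 and 10581 CPM. The order without Apoe was not examined in the other libraries. The sums do not give shares of cells. TG library 1 stood apart from TG libraries 2 to 4, with an oligodendrocyte marker sum of 12909 CPM against 2035 to 2620 CPM. All samples were labelled male, yet every library had 1279 to 8362 reads of Xist and none of the 13 Y-linked genes had a read. Whether this lies in the sex label or in the counting of Y-linked genes was not tested. Pirt itself ranged from 16.8 CPM in TG library 1 to 308 CPM in L3-L5 DRG library 1.

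**Figure D1:**
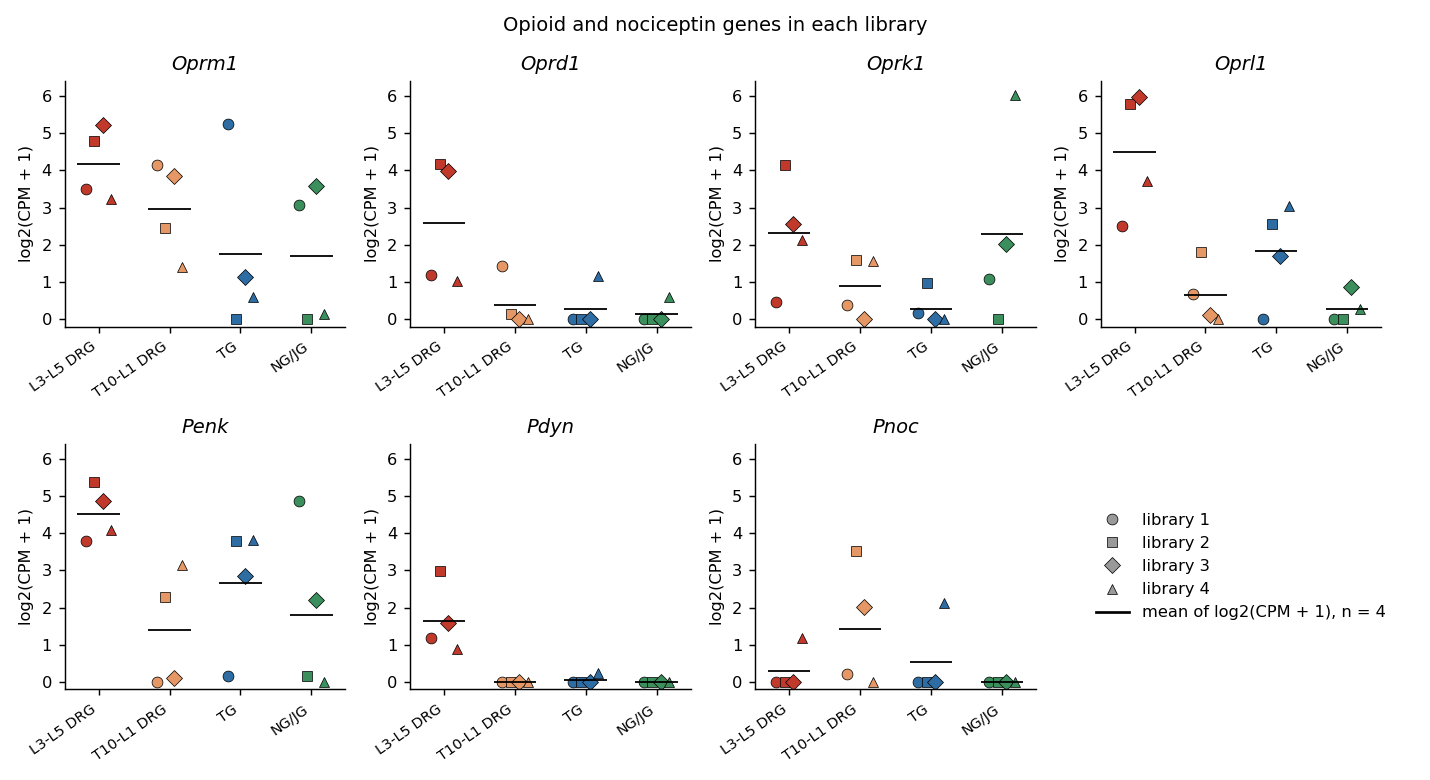
Levels of the 7 genes in each library, as log2(CPM + 1) on the vertical axis and the ganglion on the horizontal axis. Points are libraries, with 1 symbol for each library number, and the line is the mean of the 4 log2 values. Oprl1 and Penk in the L3-L5 DRG lie above every T10-L1 DRG library, and single libraries carry Oprm1 in the TG, Oprk1 in the NG/JG and Penk in the NG/JG.

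Oprm1, the mu receptor, had reads in 14 of 16 libraries. In the L3-L5 DRG it was at 10.2, 26.8, 36.1 and 8.45 CPM in libraries 1 to 4, and in the T10-L1 DRG at 16.8, 4.47, 13.4 and 1.65 CPM. In the TG it was at 36.9, 0, 1.203 and 0.527 CPM, and in the NG/JG at 7.37, 0, 10.9 and 0.103 CPM. All 8 dorsal root libraries therefore held Oprm1 above the floor, whereas in the TG library 1 held 291 of the reads and the other 3 libraries held 0, 7 and 3. That library's interval of 32.8 to 41.4 CPM (exact Poisson, 95%) did not reach the others, the highest of which ended at 2.48 CPM. Mean levels were 20.4 ± 13.3 CPM in the L3-L5 DRG, 9.67 ± 18.2 in the TG, 9.08 ± 7.19 in the T10-L1 DRG and 4.60 ± 5.45 in the NG/JG (SD, n = 4 each), and the ranges of neighbours in this order overlapped.

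Oprd1, the delta receptor, was concentrated in a pair of libraries. Its levels in L3-L5 DRG libraries 1 to 4 were 1.26, 17.1, 14.8 and 1.06 CPM, from 13, 172, 180 and 5 reads. In the T10-L1 DRG it had 11, 1, 0 and 0 reads, which is 1.68 CPM in library 1 and 0.0952 CPM in library 2. In the TG it had 7 reads, all in library 4 (1.23 CPM), and in the NG/JG 5 reads, all in library 4 (0.517 CPM). L3-L5 DRG libraries 2 and 3, which had the most neuron marker RNA, were the only ones above 2 CPM. Every L3-L5 DRG library was above every NG/JG library, while the ranges overlapped between the L3-L5 DRG and both the T10-L1 DRG and the TG.

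Oprk1, the kappa receptor, had most of its reads in 1 library of the NG/JG. NG/JG libraries 1 to 4 were at 1.11, 0, 3.04 and 64.0 CPM, so that 619 of the NG/JG reads came from library 4 and 8, 0 and 22 from the others. In the L3-L5 DRG it was at 0.389, 16.8, 4.86 and 3.38 CPM. In the T10-L1 DRG it was at 0.306, 2.00, 0 and 1.95 CPM, and in the TG at 0.127, 0.984, 0 and 0 CPM. Means were 17.0 ± 31.3 CPM in the NG/JG, 6.35 ± 7.19 in the L3-L5 DRG, 1.06 ± 1.06 in the T10-L1 DRG and 0.278 ± 0.474 in the TG (SD, n = 4 each). The SD exceeded the mean in the NG/JG, the L3-L5 DRG and the TG, and no pair of ganglia was separated. Library 4 of the NG/JG also had the fewest genes with reads, 10132, and a neuron marker sum of 2977 CPM, inside the range of its group. The part of these in the Oprk1 level was not tested.

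Oprl1, the nociceptin receptor, was separated between the L3-L5 DRG and both the T10-L1 DRG and the NG/JG. Its levels were 4.67, 53.9, 61.9 and 12.2 CPM in L3-L5 DRG libraries 1 to 4, against 0.611, 2.47, 0.0822 and 0 CPM in the T10-L1 DRG. In the TG it was at 0, 4.92, 2.23 and 7.20 CPM and in the NG/JG at 0, 0, 0.8293 and 0.207 CPM. Each L3-L5 DRG library was above all 8 libraries of the T10-L1 DRG and NG/JG, and TG libraries 2 and 4 lay above L3-L5 DRG library 1. Means were 33.2 ± 28.9 CPM in the L3-L5 DRG, 3.59 ± 3.14 in the TG, 0.792 ± 1.15 in the T10-L1 DRG and 0.259 ± 0.392 in the NG/JG (SD, n = 4 each), the last from 8 reads in all. The sum of 4 peptidergic nociceptor markers was 511 to 6653 CPM in the L3-L5 DRG, 337 to 2108 in the T10-L1 DRG and 4.55 to 378 in the NG/JG, with all 4 above the floor in every library but NG/JG library 4, which had 3. The sum of 3 C low-threshold markers was 9.50 to 352, 8.25 to 57.6 and 57.6 to 191 CPM in the same order, with 1 to 3 of them above the floor. The 3 markers did not move together. In that order, medians were 134, 7.29 and 114 CPM for Th, which made up most of the NG/JG sum. They were 0.763, 0.527 and 3.66 CPM for Slc17a8, and 74.0, 9.77 and 1.11 CPM for Fam19a4. The sum of 7 immediate-early genes was 2408 to 12908, 11286 to 31880 and 14516 to 41895 CPM, with all 7 above the floor in each library. The part of these markers in the Oprl1 difference was not tested.

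Compared per length, the receptor with the most RNA was not the same in each library. Oprl1 led in 7 libraries: L3-L5 DRG 2, 3 and 4, T10-L1 DRG 2, and TG 2, 3 and 4. Oprm1 led in L3-L5 DRG library 1, T10-L1 DRG libraries 1 and 3, TG library 1 and NG/JG libraries 1 and 3. Oprk1 led in T10-L1 DRG library 4 and NG/JG library 4, and Oprd1 led in none. Summed over the 4 receptors, RPKM was 2.87, 24.3, 25.3 and 5.06 in L3-L5 DRG libraries 1 to 4, and 0 to 9.55 in the 12 other libraries. NG/JG library 2 had no read of any receptor among 8787438 gene reads.

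**Figure D2:**
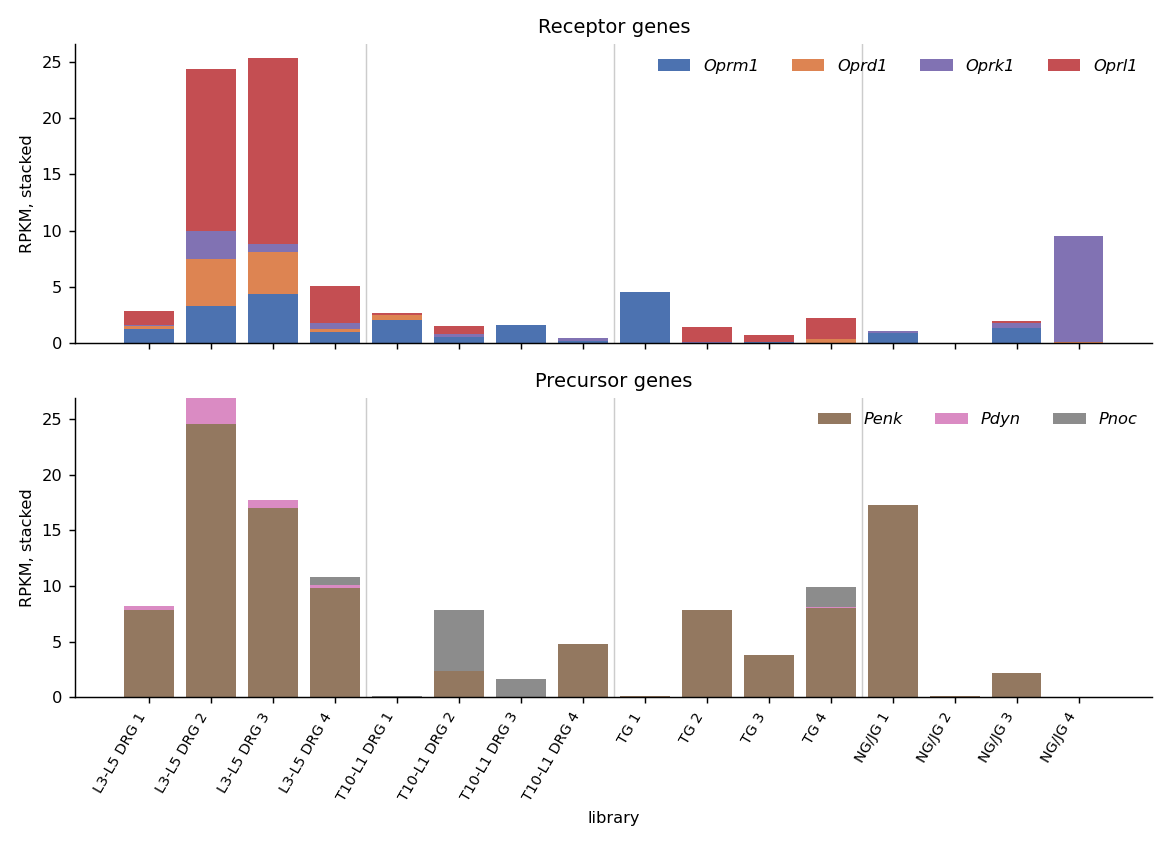
RPKM of the 4 receptor genes (upper panel) and the 3 precursor genes (lower panel) in each of the 16 libraries, stacked by gene, on axes that start at 0. L3-L5 DRG libraries 2 and 3 have the tallest receptor bars, at 24.3 and 25.3 RPKM, and NG/JG library 4 follows at 9.55 RPKM, nearly all of it Oprk1.

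Penk, the enkephalin precursor, was the most abundant of the 7 genes per length in the L3-L5 DRG, at 14.8 RPKM on average against 8.84 RPKM for Oprl1. In CPM, L3-L5 DRG libraries 1 to 4 were at 12.7, 40.1, 27.9 and 16.05, and T10-L1 DRG libraries at 0, 3.90, 0.0822 and 7.88. In the TG Penk was at 0.127, 12.8, 6.19 and 13.2 CPM, with library 1 low, and in the NG/JG at 28.2, 0.114, 3.59 and 0 CPM, with library 1 high. The L3-L5 DRG range was thus above that of the T10-L1 DRG, and met that of the TG, where libraries 2 and 4 were just over L3-L5 DRG library 1. Means were 24.2 ± 12.4, 8.07 ± 6.19, 7.99 ± 13.6 and 2.96 ± 3.75 CPM in the L3-L5 DRG, TG, NG/JG and T10-L1 DRG (SD, n = 4 each).

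Pdyn, the dynorphin precursor, was read in all 4 L3-L5 DRG libraries, at 1.26, 6.85, 1.98 and 0.845 CPM, from 13, 69, 24 and 4 reads. It had 1 read in the TG, in library 4 (0.176 CPM), and none in the 8 libraries of the T10-L1 DRG and NG/JG. Set against the floor of 3 counts per library, the L3-L5 DRG mean of 2.73 ± 2.78 CPM (SD, n = 4) was at least 8.99-fold higher than the mean floor of the T10-L1 DRG and at least 7.37-fold higher than that of the NG/JG. Without library 2, the highest, these limits were 4.48-fold and 3.67-fold. Library 4 of the L3-L5 DRG, with 4 reads, lay just over its own floor of 0.633 CPM.

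Pnoc, the nociceptin precursor, was above the floor in 4 of the 16 libraries. T10-L1 DRG libraries 1 to 4 held 1, 109, 37 and 0 reads, or 0.153, 10.4, 3.04 and 0 CPM. Single libraries of the L3-L5 DRG and the TG held it, at 1.27 CPM (6 reads, library 4) and 3.34 CPM (19 reads, library 4), and no NG/JG library had a read. The mean in the T10-L1 DRG was 3.39 ± 4.86 CPM (SD, n = 4), but its range overlapped that of every other ganglion. Oprl1, the receptor of its peptide, was above the floor in 3 of those 4 libraries, and in 10 of all 16.

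Each pair of ganglia was compared with edgeR's quasi-likelihood test on every gene kept by its filter for low counts. The p-values were adjusted over those genes by the Benjamini-Hochberg method, and a gene was called at an adjusted p under 0.05. The labels do not say whether libraries of a group came from separate mice, so the p-values measure the spread between libraries. In RNA from many sorted cells, fewer cells that express a gene and less RNA per cell cannot be told apart. The filter passed 5 of the 7 genes in L3-L5 DRG against T10-L1 DRG, 4 in NG/JG against L3-L5 DRG, 3 in each of NG/JG against T10-L1 DRG, TG against T10-L1 DRG and TG against L3-L5 DRG, and 1 in TG against NG/JG. Pdyn and Pnoc passed in no pair.

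Between the L3-L5 DRG and the T10-L1 DRG none of the 7 genes was called by edgeR, where 0.00% of all genes tested were. At an unadjusted p under 0.05, reached by 6.07% of all genes, stood Oprl1 and Oprd1. Oprl1 was 5.43 higher in the L3-L5 DRG on the log2 scale (SE 1.44, edgeR unadjusted p = 0.00401, adjusted p = 0.785). Oprd1 was 4.34 higher (SE 1.83, edgeR unadjusted p = 0.0404, adjusted p = 0.785). With 31 and 12 reads in all in the T10-L1 DRG, Oprl1 and Oprd1 passed the filter mainly through their L3-L5 DRG levels. The CPM of the groups did not overlap for Oprl1 and Penk, 2 of the 5 that passed the filter, as for 3.70% of all genes that passed it, nor for Pdyn, which did not pass. DESeq2 called Oprl1 (adjusted p = 0.00487) and Pdyn (adjusted p = 0.0181), beside 0.499% of the genes to which it gave an adjusted p.

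Between the NG/JG and the L3-L5 DRG edgeR again called none of the 7 genes and 0.00% of all genes. Oprl1 was the only one of the 7 at an unadjusted p under 0.05, with 6.04% of all genes there. It was lower in the NG/JG, at -6.84 on the log2 scale (SE 1.90, edgeR unadjusted p = 0.00484, adjusted p = 0.244). With 8 reads in all in the NG/JG, Oprl1 passed the filter through its L3-L5 DRG levels. The fold change and the separation of the groups drew on those same levels. Groups did not overlap for Oprl1, 1 of the 4 that passed the filter, as for 7.34% of all genes that passed it, nor for Oprd1 and Pdyn, which did not pass. DESeq2 called these 3, Oprd1 with an adjusted p of 0.0197, Oprl1 with 4.95e-05 and Pdyn with 0.00411, and 5.66% of all genes. The edgeR likelihood ratio test called Oprl1 (adjusted p = 0.00909) and 2.39% of all genes.

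Between the TG and the L3-L5 DRG none of the 7 was called by edgeR or reached an unadjusted p under 0.05, while 0.00% and 18.2% of all genes did. None of the 3 that passed the filter was separated, where 15.9% of all genes that passed it were. Pdyn, which did not pass, did not overlap, and DESeq2 called Pdyn alone (adjusted p = 0.0174), with 11.3% of all genes. This comparison depended on TG library 1 for Oprm1. Without that library Oprm1 was lower in the TG by edgeR, at -4.69 on the log2 scale (SE 1.22, adjusted p = 0.0341), and 15.2% of all genes were called. With it the difference was -0.92 (SE 1.47, edgeR adjusted p = 0.807).

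The 3 other pairs gave no call among the 7 genes by edgeR or DESeq2 and no separated range. By edgeR's quasi-likelihood test as described above, none was at an unadjusted p under 0.05. Some alternative edgeR fits had 1 or more of the 7 under 0.05 before adjustment, and called none. DESeq2 had Pnoc at an unadjusted p under 0.05 in NG/JG against T10-L1 DRG and Oprl1 in TG against NG/JG, and gave Oprk1 no p in the comparisons of the NG/JG. In NG/JG against T10-L1 DRG, edgeR called 0.0322% of all genes, 5.91% were at an unadjusted p under 0.05, DESeq2 called 6.13%, and 8.04% of those that passed the filter did not overlap. In TG against T10-L1 DRG the same shares were 5.87%, 21.6%, 15.4% and 18.5%, and in TG against NG/JG 0.0510%, 10%, 6.35% and 9.63%. The pairs share libraries, so these results are not independent of each other.

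**Figure D3:**
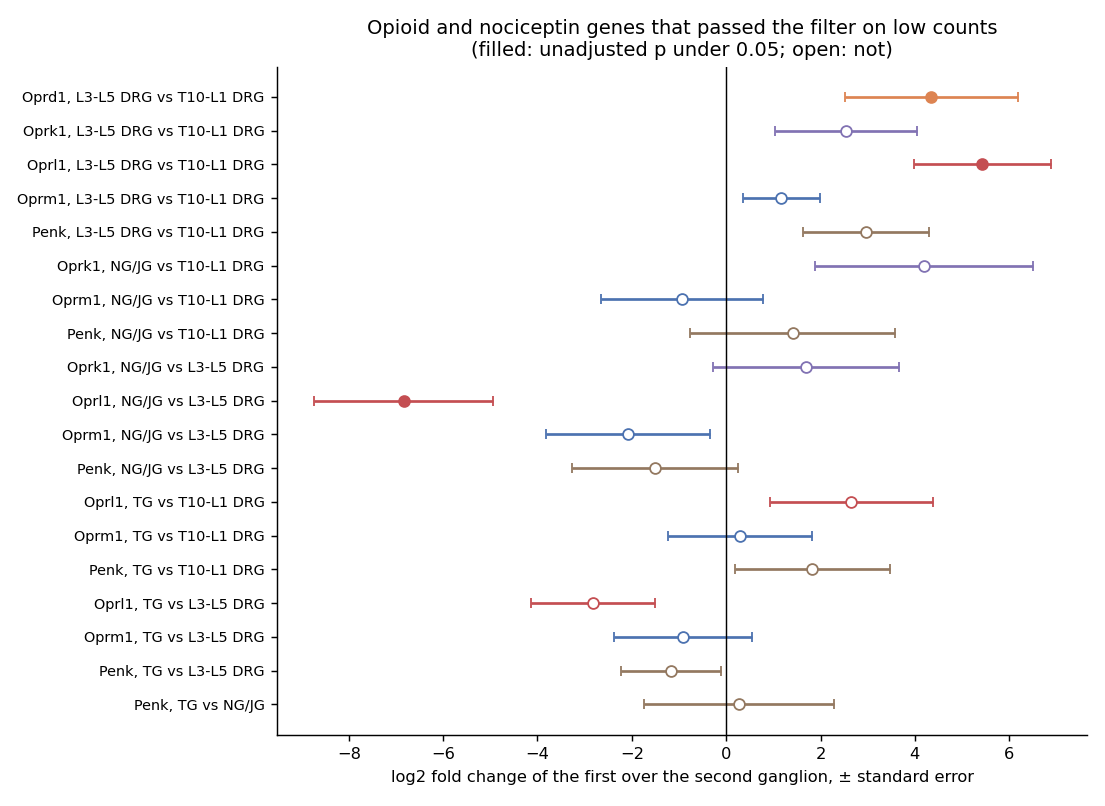
Log2 fold change of the first named ganglion over the second, with its standard error from edgeR, for each of the 19 combinations of a gene and a pair of ganglia that passed the filter on low counts. Filled points, for Oprd1 and Oprl1 in L3-L5 DRG against T10-L1 DRG and for Oprl1 in NG/JG against L3-L5 DRG, had an unadjusted p under 0.05, and no adjusted p was under 0.05.

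Tested for any difference among the 4 ganglia, edgeR called none of the 6 of these genes that passed the filter, where it called 3.01% of all genes. Oprl1, with an unadjusted p of 0.00566 (edgeR adjusted p = 0.102), and Oprd1, with one of 0.0413 (edgeR adjusted p = 0.263), were under 0.05 before adjustment, as were 17.5% of all genes. DESeq2 called Oprl1 (adjusted p = 0.00181) and Pdyn (adjusted p = 0.0261) and 12.7% of all genes, and the edgeR likelihood ratio test called Oprl1 (adjusted p = 0.00394) and 10.7% of all genes. Without TG library 1, edgeR's quasi-likelihood test called Oprl1 (adjusted p = 0.0422) and Pdyn (adjusted p = 0.0412) and 6.98% of all genes.

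Since the neuron marker sums differed between libraries, each level was also expressed per 1000 CPM of the 8 neuron markers, a scale chosen after the data were seen. On it Oprl1 was at 1.34, 5.91, 5.85 and 10.6 in L3-L5 DRG libraries 1 to 4, with library 4 and not 2 or 3 the highest. Library 4 had the lowest neuron marker sum of the L3-L5 DRG, 1156 CPM, and the most genes with reads, 18571. Oprl1 remained above all libraries of the T10-L1 DRG, which reached 0.763, and of the NG/JG, which reached 0.172. Pdyn, at 0.187 to 0.751 in the L3-L5 DRG, also stayed above the 3 other ganglia, and Oprd1, at 0.363 to 1.87, stayed above the NG/JG. Penk did not: its L3-L5 DRG range of 2.63 to 13.9, highest in library 4, overlapped the T10-L1 DRG range of 0 to 3.97. The share of all genes that did not overlap on this scale is not given here. The separations on it can therefore not be set against all genes. Oprm1 in TG library 1 was at 43.0 on this scale, in the library with the lowest neuron marker sum, and at no more than 8.56 in any other library.

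**Figure D4:**
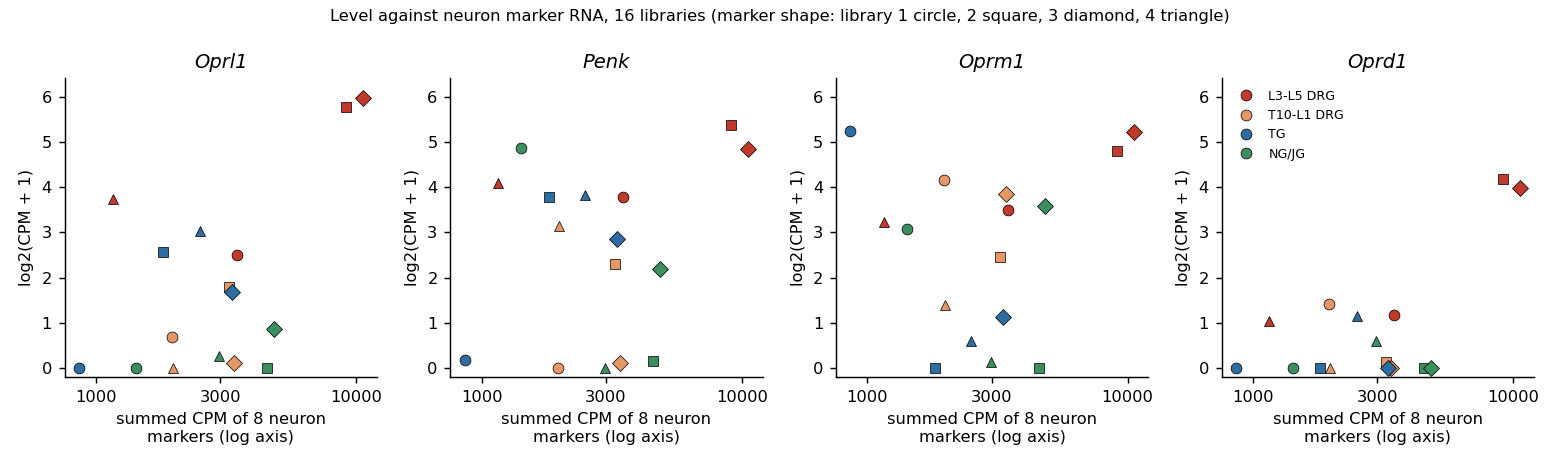
Level of Oprl1, Penk, Oprm1 and Oprd1 as log2(CPM + 1) against the summed CPM of 8 sensory neuron markers on a log axis, with 1 point for each of the 16 libraries, coloured by ganglion. L3-L5 DRG libraries 2 and 3 stand alone at the right, at 9113 and 10581 CPM of neuron markers, and TG library 1 at the left, at 858 CPM, is the highest for Oprm1.

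Across the 16 libraries, Oprd1 followed the neuron marker sum with r = 0.627, Pdyn with r = 0.573 and Oprl1 with r = 0.529, on log2 levels, and rho was 0.302, 0.379 and 0.330. Leaving out TG library 1 and L3-L5 DRG library 3, the farthest from the median of the sum, took r to 0.446, 0.495 and 0.259. For Oprm1 r was 0.134 and for Pnoc -0.06. Among the genes themselves, Oprd1 and Pdyn had r = 0.897, Oprd1 and Oprl1 r = 0.854 and Oprl1 and Pdyn r = 0.838, and after subtracting ganglion means these were 0.737, 0.707 and 0.521. Oprl1 and Pnoc had r = 0.0353. These 16 points share libraries and depth, and fall into 4 ganglia, so the values are a description.

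The genes whose log2 levels were most like those of each gene over the 16 libraries, among 14235 others, differed from one to the next. Oprl1 was most like Fam179a (r = 0.935), Cpne9 (r = 0.930) and B4galnt4 (r = 0.921). Oprd1 was most like Ano2 (r = 0.934), Mrgprx1 (r = 0.931) and Rgag1 (r = 0.897), of which Mrgprx1 is a receptor of itch-sensing nociceptors. The nearest to Oprm1 were Pcdhb9 (r = 0.872), Ubqln1 (r = 0.872) and Ddx59 (r = 0.869), and the nearest to Penk were Arxes2 (r = 0.882), Gm7271 (r = 0.866) and Rbm46 (r = 0.823). For Oprk1 they were Pcdhb14 (r = 0.853), Mff (r = 0.840) and Otud7a (r = 0.825), and for Pnoc Cdc45 (r = 0.860), Tigd3 (r = 0.820) and Ppl (r = 0.792). Pdyn did not pass the filter. Ranking by Spearman's rho kept 0 or 1 of each gene's 3.

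The genes around the receptors were examined as a list of 58: the precursor Pomc, peptide-processing and peptide-degrading enzymes, inhibitory G proteins, RGS proteins, receptor kinases and arrestins, potassium and calcium channels, adenylyl cyclases and trafficking proteins. In L3-L5 DRG against T10-L1 DRG, 39 of the 54 tested had a higher level in the L3-L5 DRG, with a median of 0.40 on the log2 scale against 0.03 over all genes, and edgeR called none. The same medians were -0.21 against 0.01 in NG/JG against L3-L5 DRG (21 of 52 higher), -0.47 against -0.03 in TG against L3-L5 DRG (20 of 54 higher) and -0.03 against 0.02 in NG/JG against T10-L1 DRG (26 of 53 higher). They were -0.20 against -0.03 in TG against T10-L1 DRG (24 of 53 higher) and -0.20 against -0.05 in TG against NG/JG (22 of 50 higher).

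Only TG against T10-L1 DRG had calls in this list, 1 in each direction, which is 2 of 53 genes in a pair where 5.87% of all genes were called. Pomc, the precursor of beta-endorphin, was at 332, 819, 584 and 5.62 CPM in TG libraries 1 to 4, and at 3.52, 0.286, 1.64 and 0.525 CPM in the T10-L1 DRG. The difference was 8.65 on the log2 scale (SE 1.44, edgeR adjusted p = 0.0254), and TG library 4 lay far below the other TG libraries. In the test for any difference among the 4 ganglia Pomc was called too (edgeR adjusted p = 0.00177). Rgs4, which speeds the shut-off of inhibitory G proteins, was at 80.1, 196, 125 and 149 CPM in the TG and 194, 962, 1167 and 787 CPM in the T10-L1 DRG, a difference of -2.11 on the log2 scale (SE 0.535, edgeR adjusted p = 0.0464). Leaving out any 1 T10-L1 DRG library, TG library 2 or TG library 3 ended both calls, with adjusted p of 0.0509 to 0.105 for Pomc and 0.0744 to 0.143 for Rgs4. In those 6 fits edgeR called 0 to 119 genes in all, against 758 with all libraries, while the differences were 8.06 to 9.39 for Pomc and -2.43 to -1.84 for Rgs4 on the log2 scale. Leaving out TG library 4 ended that of Rgs4 (edgeR adjusted p = 0.127), with 1 gene called in all. Without TG library 1, 12 list genes and 26.7% of all genes were called.

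On the RPKM scale the receptors had means over the 16 libraries of 0.587 (Oprd1) to 2.52 (Oprl1), and 18 of the 58 listed genes had a mean below that of Oprl1. The 2 highest genes of a role are given here. That mean was 76.7 RPKM for Gnai2 and 41.9 for Gnai3, inhibitory G protein subunits, 208 for Rgs4 and 72.7 for Rgs10. It was 374 for the protease Ctsl and 361 for Cpe, a carboxypeptidase that trims precursor fragments. Enzymes that break down enkephalins or related peptides were Ece1, at 51.6 RPKM, and Dpp3, at 30.0. The receptor kinase Adrbk1 was at 18.9 RPKM and the arrestin Arrb2 at 8.71, and the trafficking genes Rtp4 and Wls were at 36.6 and 32.4. Adenylyl cyclases Adcy7 and Adcy2 were at 3.89 and 3.52 RPKM, and the calcium channel subunits Cacnb3 and Cacna2d1 at 29.1 and 3.44.

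The potassium channels through which opioid receptors hyperpolarise neurons were near the floor in most libraries. Kcnj3 averaged 1.96 ± 1.88 RPKM in the L3-L5 DRG, 0.332 ± 0.651 in the T10-L1 DRG and 0.329 ± 0.659 in the TG, and had no read in the NG/JG (SD, n = 4 each). Kcnj9 averaged 0.977 ± 1.47, 0.331 ± 0.424, 0.128 ± 0.152 and 0.0106 ± 0.0213 RPKM in the L3-L5 DRG, T10-L1 DRG, TG and NG/JG. Kcnj3 was at 0 in 9 of the 16 libraries and Kcnj9 in 7.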

How the data were processed

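Sorted sensory neurons of 4 kinds of mouse ganglia were sequenced as 50 bp single reads, 4 libraries each. The authors deposited raw read counts per gene for each library; per the labels the reads were aligned with TopHat2 to mm9 and counted with HTSeq, and versions, annotation and strand setting are not given in the sources used here. HTSeq's special rows were left out: reads that it assigned to no feature made up 29.6 to 66.6% of unique alignments. CPM used the sum over genes, and RPKM the merged exon length from the GENCODE annotation of NCBIM37, found for 21714 of 22609 symbols (87 through synonyms).

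Pairs of ganglia were tested in their 8 libraries with edgeR 4.0.16 (TMM, filterByExpr, quasi-likelihood, group as the only term) and Benjamini-Hochberg adjustment over all genes tested, and any difference among ganglia over all 16. Alternatives were DESeq2 1.42.0, the likelihood ratio test, RLE factors, no filter, a replicate block, 1 fit of all libraries and leaving out each library. The scripts were tested on simulated counts. The genes and lists were chosen with earlier results of these data known. Fold changes were named at an unadjusted p under 0.05, or where a library changed a call, and list genes where called or among the 2 highest by RPKM of each role. The likeness of genes was Pearson's r of log2(CPM + 1).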

Additional observations from a re-analysis of the deposited data

Results flagged for a closer look

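Among the 25 combinations of a gene and a ganglion with reads, 10 had 1 library whose gap to the nearest other library was larger, as a share of the range, than Dixon's 95% critical value for 4 libraries. That value is passed by about 1 in 20 groups of normally distributed values, and counts this low are not normally distributed. It is always passed where a single library has reads and the others of its ganglion are at 0. The 10 can therefore not be set against that share. All 10 were high libraries. Oprk1 was at 64.0 CPM in NG/JG library 4, where the others reached 3.04 CPM. Oprm1 was at 36.9 CPM in TG library 1, where the others reached 1.203 CPM. Penk was at 28.2 CPM in NG/JG library 1, where the others reached 3.59 CPM. Pnoc was at 3.34 CPM in TG library 4, from 19 reads, and at 1.27 CPM in L3-L5 DRG library 4, from only 6 reads. It was at 0 in the other libraries of both ganglia. The remaining ones rested on 1 to 11 reads: Oprd1 at 1.68 CPM in T10-L1 DRG library 1, at 1.23 CPM in TG library 4 and at 0.517 CPM in NG/JG library 4, Oprk1 at 0.984 CPM in TG library 2, and Pdyn at 0.176 CPM in TG library 4.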

How the results depend on the processing

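The fold changes of Oprl1, Oprd1, Pomc and Rgs4 given above kept their direction under every alternative that gave a value. With DESeq2 the 7 genes had 2 calls in L3-L5 DRG against T10-L1 DRG, 3 in NG/JG against L3-L5 DRG, 1 in TG against L3-L5 DRG and 2 for any difference, where edgeR's quasi-likelihood test had 0; the edgeR likelihood ratio test had 1 in NG/JG against L3-L5 DRG and 1 for any difference. Leaving out 1 library gave 0 to 1 calls in TG against L3-L5 DRG and 0 to 2 for any difference, and 0 in the 5 other pairs. Among the 58 genes around the receptors, TG against T10-L1 DRG had 2 calls, which became 6 with DESeq2, 5 with the likelihood ratio test, 1 with all 16 libraries in 1 fit and 0 to 12 with 1 library left out, the 12 without TG library 1, where 3583 of 13410 genes were called in all. TG against L3-L5 DRG went from 0 to 5, 2, 2 and 2 with DESeq2, the likelihood ratio test, no filter and the fit of all libraries, and to 0 to 4 with 1 library left out. TG against NG/JG went from 0 to 2, 1, 1 and 1 in the same order, and to 0 to 2. NG/JG against L3-L5 DRG had 2 with DESeq2. Over all genes DESeq2 called 15.4% in TG against T10-L1 DRG, 11.3% in TG against L3-L5 DRG and 6.35% in TG against NG/JG. In NG/JG against L3-L5 DRG it called 5.66%. The likelihood ratio test called 1462 of 12914, 858 of 12900 and 247 of 11769 genes in the TG pairs, in the same order. The cause of the changes in calls was not tested.

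With the replicate block, the list had 0 calls in TG against T10-L1 DRG, Pomc and Rgs4 both reaching an edgeR adjusted p of 0.0934, and no other count among the 7 genes or the list changed. Over all genes the block took the calls from 758 to 0 in TG against T10-L1 DRG, from 4 to 0 in NG/JG against T10-L1 DRG, from 6 to 1 in TG against NG/JG and from 429 to 184 for any difference. The library numbers were not treated as pairs: same-numbered libraries correlated at -0.12 to 0.197 in their deviations from the ganglion means, and no pair of ganglia had all 4 over 0.1. In NG/JG against L3-L5 DRG all 4 numbers correlated best with their own, a hint from the data and not from the design.

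Leaving out each library, Oprl1 ranged from 4.92 to 7.31 on the log2 scale in L3-L5 DRG against T10-L1 DRG and from -8.39 to -6.31 in NG/JG against L3-L5 DRG, and Oprd1 from 3.75 to 7.72 in the former. Depth limits Pdyn, Pnoc and Oprd1 most: outside the L3-L5 DRG, Oprd1 had at most 11 reads in a library, and a count of 0 allows up to 0.225 to 0.633 CPM.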
